A study of Mus musculus with 6 samples.

Results

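MicroRNAs (miRNAs) of 2 related clusters, which hold miR-23, miR-27 and miR-24, were followed in cultured mouse vascular smooth muscle cells (VSMCs). These cells lie in layers within the arterial wall and contract it. They were grown with and without TNF-α, an inflammatory cytokine. The members were the reporters whose name equalled mmu-miR-23a, mmu-miR-23b, mmu-miR-27a, mmu-miR-27b, mmu-miR-24 or mmu-miR-24-2* (mmu for mouse, left out below), which gave 6 of the 1078 mouse miRNA reporters on each array. Names are those of an older miRBase release, where a star is given to the hairpin arm found in lower amounts. The source was the abdominal aorta of 8-week-old C57BL/6 mice in every case, and cells of both groups had been passaged several times before harvest. One group was untreated (3 cultures) and the other was treated with TNF-α (3 cultures), each culture being grown on its own and read on 1 array. Neither the dose of TNF-α nor its duration is stated in the labels.

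A miRNA is cut as 1 arm or the other from an RNA hairpin and lowers the output of mRNAs that pair with its seed, the bases next to its 5′ end. In the mouse genome miR-23, miR-27 and miR-24 hairpins lie side by side in 2 clusters, a and b, which are thought to arise by duplication, and each cluster is transcribed as a unit. miR-24 has the same mature sequence from both clusters, whereas its minor arm differs between them. In blood vessels the clusters are known for effects on endothelial growth, and in VSMCs miR-24 has been placed downstream of platelet-derived growth factor. Signalling by TNF-α in VSMCs is known to favour an inflammatory, less contractile state.

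The sequences are shown because they set which members can share targets and which reporters could read more than 1 miRNA. They are the RefSeq entries of build GRCm38.p6, of which 5 of the 6 members had a mature entry. Cluster a spans 404 bases at chr8:84208518-84208921, plus strand, and no longer gene of the RefSeq table spans it. Cluster b spans 792 bases at chr13:63300484-63301275, plus strand, within the bounds of the protein-coding gene Aopep. Capitals mark the seed (bases 2 to 8 from the 5′ end), and miR-23b is named only.
miR-23a: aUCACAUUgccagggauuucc
miR-27a: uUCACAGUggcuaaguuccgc
miR-27b: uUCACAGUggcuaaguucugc
miR-24: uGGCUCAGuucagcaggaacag
miR-24-2*: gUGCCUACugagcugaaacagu
miR-24-1*: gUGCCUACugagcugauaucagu

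miR-27a and miR-27b share their seed and differ by 1 base, C19U, counted from 1 at the 5′ end of miR-27a. miR-23a and miR-27a have different seeds that open with the same 5 bases. miR-24-2* and miR-24-1*, the minor arms of the hairpins of clusters a and b, share their first 16 bases and differ in their 3′ part. The probe sequences were not used here, so how far the reporter of miR-27a also reads miR-27b was not tested.

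In the hairpin of miR-24 from cluster a, at chr8:84208815-84208921, the minor arm lies 5′ of the major arm. It is shown with both arms in capitals because 1 of its arms passed the test below and the other did not. The major arm is read as the same sequence from both clusters.
Mir24-2: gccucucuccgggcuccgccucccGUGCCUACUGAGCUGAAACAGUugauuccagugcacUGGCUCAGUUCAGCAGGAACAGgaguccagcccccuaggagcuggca

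Values are the scanner's median density per reporter, a linear intensity. The peak of dim reporters, taken as background, lay at 65.9 to 76.4 on control arrays and at 81.5 to 91.1 on TNF-α arrays. The background limit, 3 SD above that peak, was 88.0 to 102.7 and 117 to 127, and 301 to 339 and 236 to 255 reporters exceeded it. These measures separated the groups, so that treatment and any technical difference between the 2 sets of arrays cannot be told apart, and with 6 arrays the precision of all values is limited by their number. Of 4 smooth muscle markers on the array, miR-143 and miR-145 exceeded the limit on all 6 arrays, miR-133b on 2 and miR-133a on none. None of 5 epithelial markers and not the liver marker miR-122 exceeded it on any array. Of 5 blood cell markers only miR-150 did, on 2 arrays. Of 3 striated muscle markers miR-206 did on all 6 arrays, and miR-208b and miR-499 on none. The endothelial marker miR-126-3p exceeded it on 5 arrays, at densities of 117 to 157, and miR-126-5p on none. Summed above the peak, the endothelial markers lay at 46.9 to 81.0 in controls and 35.0 to 55.5 with TNF-α, which overlap. The sums of 3 lists were lower with TNF-α without overlap: striated muscle at 179 to 205.0 against 86.6 to 112, blood at 26.9 to 40.9 against 0 to 19.9, and liver at 13.5 to 17.1 against 0 to 0.599. The peak taken off was higher on TNF-α arrays, and no blood or liver marker exceeded the limit on 3 arrays or more. Densities of miR-122 itself overlapped, at 83.0 to 93.5 in controls and 79.8 to 89.2 with TNF-α. Those of miR-206, the only striated marker above the limit, were 237 to 277 and 168 to 199. The part of these markers in the results was not tested.

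All 6 members exceeded the background limit on all 6 arrays. After TNF-α only the minor arm miR-24-2* passed the test, as higher by 1.32-fold. The 5 major-arm members did not pass it as reported. Under 1 of 20 alternatives, a median scaling given below, miR-23a, miR-23b and miR-27a passed as higher. All major arms but miR-27b had a higher mean density with TNF-α, and a change that did not pass is not shown to be absent. Changes are TNF-α over control, with normexp background correction, an offset of 50 and quantile normalization, and a change passed at an adjusted p under 0.05 in limma over all 642 tested reporters. On that scale 1 of the 6 members passed as higher and 0 as lower, whereas 22.7% of all tested reporters passed in either direction and 12.9% as higher. The median change of the 6 members was 0.094 (log2) and that of all tested reporters 0.0078. Normalized values of TNF-α and control arrays did not overlap for 1 of the 6 members, miR-24-2*, and for 40.0% of all tested reporters. The p-values rest on the spread between separately grown cultures, each read on 1 array, so culture and array spread are not separated. In limma the variance of a reporter is drawn in part from all tested reporters.

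**Figure D1:**
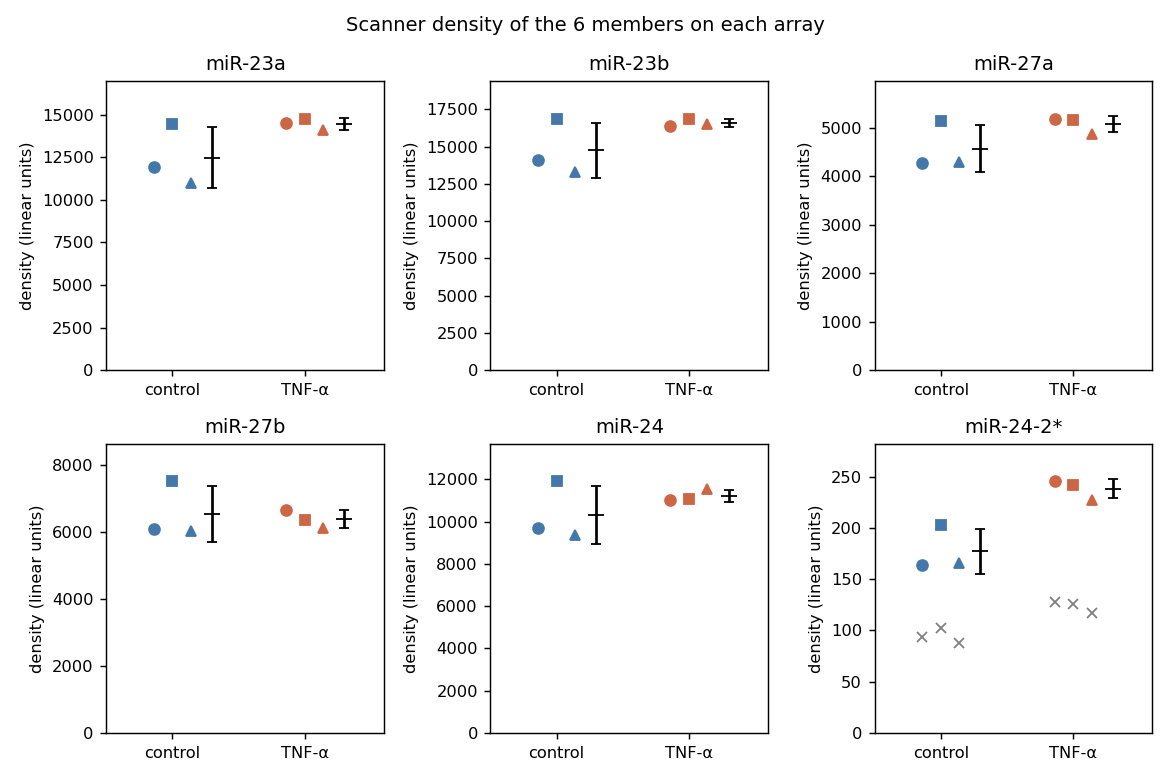
Scanner density (linear units, axes from 0) of each member on the 3 control arrays (blue) and the 3 TNF-α arrays (orange). Circles, squares and triangles are replicates 1, 2 and 3, bars are the mean and SD, and grey crosses in the panel of miR-24-2* are the background limit of each array. Control replicate 2 is the highest control in every panel, and only for miR-24-2* do all TNF-α arrays lie above it.

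miR-24-2* had densities of 164, 203 and 166 on control arrays 1, 2 and 3, and of 245, 242 and 228 on TNF-α arrays 1, 2 and 3. Every TNF-α array was above every control array. Control arrays averaged 177 ± 22.0 (SD, n = 3) and TNF-α arrays 238 ± 9.43. Background was also higher on TNF-α arrays. With each array's background peak taken off, miR-24-2* stood at 106 ± 18.2 in controls and 151 ± 4.48 with TNF-α, a ratio of 1.43, again with no overlap. The share of all reporters without overlap was not counted for densities, with or without the peak. Median densities of whole arrays also separated the groups, at 74.7 to 82.7 in controls and 85.9 to 97.2 with TNF-α. Its normalized change was 0.41 ± 0.082 (log2, SE, n = 3 per group, limma adjusted p = 0.0115), and the 95% interval ran from 0.22 to 0.59. The SD within an array, as the scanner output gives it, was 7.40% to 12.6% of its density, against at most 4.70% for the other 5 members.

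Because miR-24-2* is dim, the size of its change depends on the offset, at 0.51 with the smaller offset tried and 0.29 with the larger. It passed under all 20 alternatives, at 0.29 to 0.56, with adjusted p from 0.00342 to 0.0369 in limma. In the authors' processed table it was 106 ± 11.8 in controls and 158 ± 3.71 with TNF-α.

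miR-24, the major arm of the same hairpin and of its copy in cluster b, had densities of 9689, 11900 and 9372 in controls and of 11006, 11084 and 11533 with TNF-α. The groups overlapped, since control replicate 2 was the brightest of all 6 arrays. The change was 0.031 ± 0.086 (limma adjusted p = 0.826), and its 95% interval ran from -0.17 to 0.23.

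miR-24 comes from both clusters and miR-24-2* from cluster a only, so the major arm of the cluster a hairpin was not read alone. With that limit, the 2 arms were set against each other within each array. Scaling applied to log2 values cannot move such a difference, but the offset can, and with quantile normalization the shift described here was 0.48 with the smallest offset tried and 0.26 with the largest. Before normalization, log2 miR-24-2* minus log2 miR-24 was -5.92, -5.91 and -5.78 on the control arrays and -5.53, -5.55 and -5.66 on the TNF-α arrays. All TNF-α values lay above all control values. The size of such a difference also reflects the probes, so only its shift between groups is read. That shift was 0.29 before normalization and 0.37 with quantile normalization, both in favour of the minor arm, and in each the exact permutation test (two-sided) gave p = 0.1. This is the smallest p that 3 arrays against 3 allow; adjusted over the 4 within-array differences tested here it was 0.133 before normalization and 0.267 with quantile normalization.

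Among all tested reporters there were 130 pairs of a minor arm and its major arm, and the minor arm had the higher change in 60 of them. The median difference of the 130 pairs was -0.038, with quartiles of -0.20 and 0.11. The pair miR-24-2* and miR-24, at 0.37, had the 8th largest difference in favour of the minor arm. Only 21 of the 130 pairs had both arms above the background limit on at least 3 arrays, and 9 of those 21 had the higher change in the minor arm.

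miR-23a, of cluster a, had densities of 11954, 14455 and 11006 in controls and of 14483, 14759 and 14108 with TNF-α. Control replicate 2 lay within the TNF-α range. Control arrays averaged 12472 ± 1782 and TNF-α arrays 14450 ± 327 (SD, n = 3 each), and its change was 0.091 ± 0.095 (limma adjusted p = 0.538; 95% interval -0.13 to 0.31).

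miR-23b, its paralogue in cluster b, had densities of 14103, 16824 and 13302 in controls and of 16366, 16870 and 16536 with TNF-α. Again control replicate 2 lay within the TNF-α range. Its mean was 14743 ± 1846 in controls and 16590 ± 256 with TNF-α, and its change was 0.098 ± 0.078 (limma adjusted p = 0.417; 95% interval -0.081 to 0.28).

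miR-27a, known as a repressor of adipocyte differentiation, had densities of 4286, 5145 and 4297 in controls and of 5192, 5173 and 4885 with TNF-α. The groups overlapped through control replicate 2. The change of miR-27a was 0.18 ± 0.11 (limma adjusted p = 0.265; 95% interval -0.065 to 0.43).

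miR-27b had densities of 6103, 7511 and 6019 in controls and of 6663, 6369 and 6114 with TNF-α, and it was the only member whose mean density was lower with TNF-α. The groups overlapped, and all TNF-α values were below control replicate 2. The change of miR-27b was -0.066 ± 0.090 (limma adjusted p = 0.647; 95% interval -0.27 to 0.14), with positive values under 2 of 20 alternatives.

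**Figure D2:**
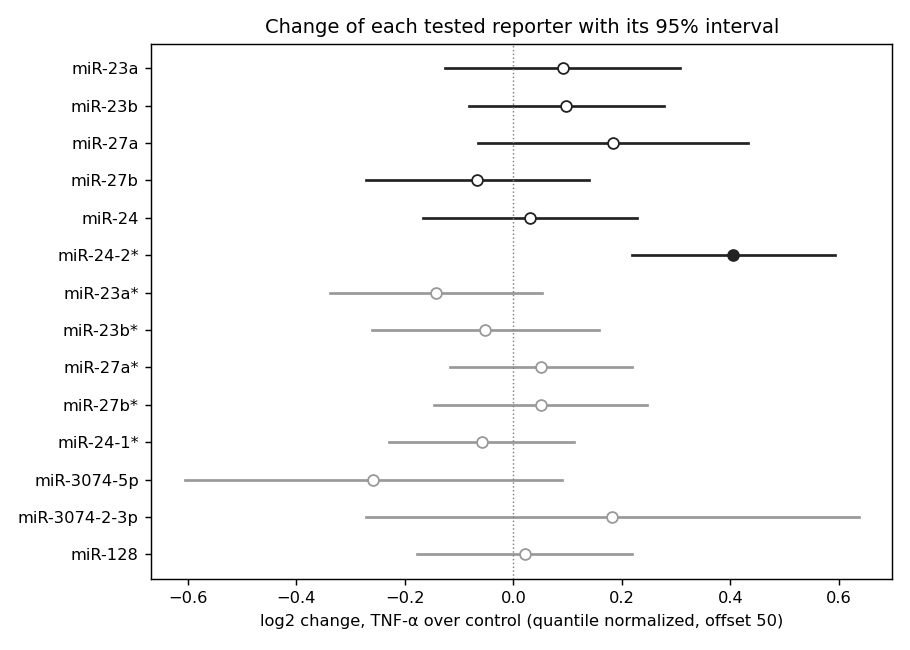
Log2 change, TNF-α over control, of the 6 members (black) and of the other tested reporters of the same hairpins and miR-128 (grey), with 95% intervals from limma. Filled points passed an adjusted p of 0.05; miR-24-2*, at 0.41, is the only filled point with this quantile normalization, and every other interval includes 0.

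The a and b paralogues were compared by the same within-array difference, since the levels of 2 probes cannot be set against each other. For miR-27a minus miR-27b before normalization the log2 values were -0.51, -0.55 and -0.49 on the control arrays and -0.36, -0.30 and -0.32 on the TNF-α arrays. The groups did not overlap, and the shift of 0.19 towards miR-27a compares with an SD of 0.030 in each group (n = 3). With quantile normalization the shift was 0.25 and the groups overlapped, at -0.69 to -0.39 in controls and -0.40 to -0.21 with TNF-α. The exact permutation test (two-sided) gave p = 0.1 before normalization, the smallest possible, and p = 0.2 with quantile normalization.

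For miR-23a minus miR-23b the groups overlapped before normalization, at -0.27 to -0.22 in controls and -0.23 to -0.18 with TNF-α. The shift was 0.044 (exact permutation p = 0.2), and with quantile normalization it was -0.0068 (exact permutation p = 1). Quantile normalization fixes 1 value per rank, and miR-23a, miR-23b and miR-24 each took only 3 distinct values over the 6 arrays. The normalized differences of these bright reporters are therefore coarse.

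Taken as the mean of miR-23a and miR-27a minus the mean of miR-23b and miR-27b, with miR-24 left out as a product of both clusters, the a minus b difference was -0.37, -0.38 and -0.38 on the control arrays. It was -0.27, -0.25 and -0.28 on the TNF-α arrays, before normalization. The groups did not overlap, with a shift of 0.12 towards cluster a and SDs of 0.0041 and 0.015 (n = 3 each). The control SD is small because miR-23a minus miR-23b and miR-27a minus miR-27b moved in opposite directions over the control arrays. Their own control SDs were 0.027 and 0.030. With quantile normalization the SDs of the a minus b difference were 0.12 in controls and 0.073 with TNF-α. The exact permutation p was 0.1 before normalization, the smallest possible, and 0.2 with quantile normalization, where the shift was also 0.12 and the groups overlapped. Adjusted over the 4 differences, the values for miR-27 and for the cluster mean were 0.133 before normalization and 0.267 with it. This shift is not independent of that of miR-27, which enters it.

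**Figure D3:**
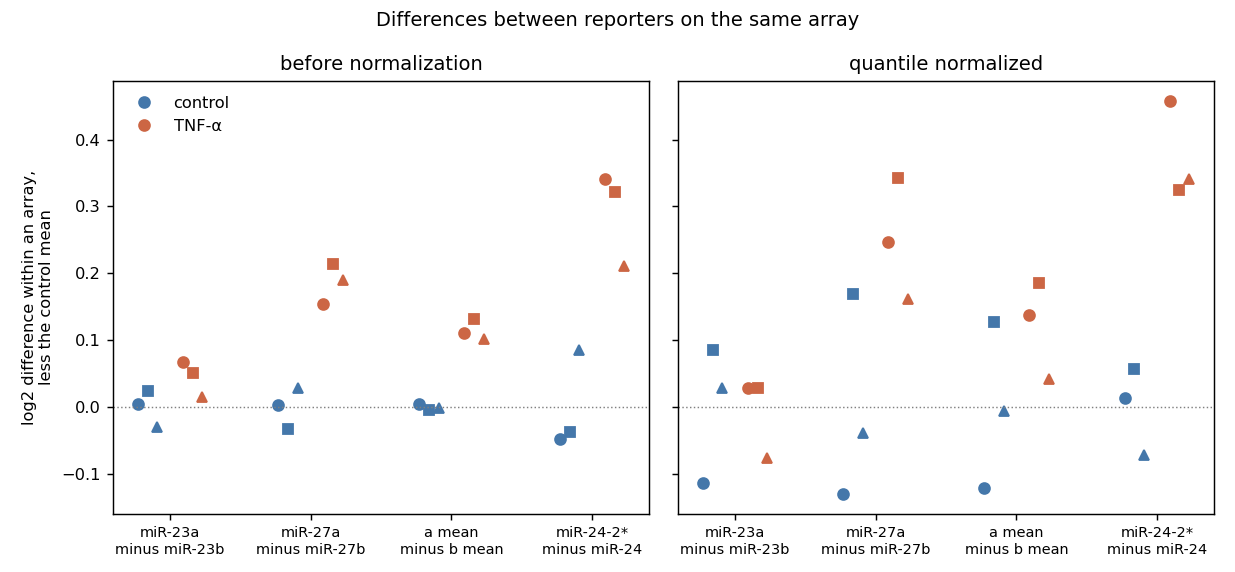
Log2 difference between reporters on the same array, less the mean of the control arrays, for the 3 control (blue) and 3 TNF-α (orange) arrays; symbols mark replicates 1 (circle), 2 (square) and 3 (triangle). Before normalization (left) the groups do not overlap for miR-27a minus miR-27b, for the a mean minus the b mean and for miR-24-2* minus miR-24; with quantile normalization (right) only the last stays apart.

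Among the 18 pairs of tested reporters named a and b with the same number, the median absolute difference of changes was 0.23, with quartiles of 0.081 and 0.36. On the quantile-normalized scale miR-23a and miR-23b had the smallest absolute difference of the 18 and miR-27a and miR-27b the 10th smallest.

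Other reporters of the same hairpins were dim. Of 8 on the array, 7 were tested, and as reported 0 passed as higher and 0 as lower. miR-3074-5p passed in the processed table and miR-27a* with the added median scaling, both given below. Only miR-23a*, miR-27b* and miR-3074-5p exceeded the background limit in both groups, so that the others have no fold. miR-24-1*, the minor arm of miR-24 from cluster b, exceeded the background limit on no array, with densities of 77.5, 83.6 and 80.4 in controls and of 97.8, 97.1 and 79.1 with TNF-α. The rise of the minor arm of cluster a therefore has no measured counterpart in cluster b, and whether the 2 minor arms differ was not detectable at these densities.

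The minor arm miR-23a* exceeded the limit on 3 control and 2 TNF-α arrays (change -0.14 ± 0.085, limma adjusted p = 0.266), as did miR-27b* (0.050 ± 0.086, limma adjusted p = 0.703). miR-23b* did so on the 3 control arrays and on no TNF-α array, and has no fold by the background rule, because its lower bound was under 1. miR-27a* did so on no array, so it has no fold either, although its estimate passed as higher when reporters above the limit on all 6 arrays set the median (limma adjusted p = 0.0200).

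miR-3074-5p is cut from the opposite strand of the miR-24 hairpins, so that 20 of its 22 bases pair in 1 run with miR-24. It had densities of 154, 177 and 159 in controls and of 176, 121 and 146 with TNF-α. The groups overlapped, and its change was -0.26 ± 0.15 (limma adjusted p = 0.264). In the authors' processed table it passed as lower, at -0.42 (limma adjusted p = 0.0109). miR-3074-2-3p exceeded the limit on 1 TNF-α array and miR-3074-1-3p on none, and the second was not tested.

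miR-128, whose first 8 bases equal bases 2 to 9 of miR-27a, had densities of 263, 272 and 281 in controls and of 262, 279 and 247 with TNF-α. The groups overlapped, and its change was 0.021 ± 0.087 (limma adjusted p = 0.886), with negative values under 6 of 20 alternatives.

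Over the 6 arrays, which is a description since all points share the arrays and their scaling, the normalized values of miR-23a correlated most with those of miR-27a among the members (Pearson r = 0.97). That order is coarse, since miR-23a took only 3 distinct normalized values over the 6 arrays and miR-27a 4. Both were lowest on control replicate 1, at 13.5 and 11.9 (log2). Whether the order holds before normalization was not tested. The lowest r values were those of miR-27b with miR-27a (0.28) and with miR-24-2* (-0.18). With miR-23a, miR-23b and miR-24 those of miR-27b were 0.44, 0.46 and 0.54, and miR-24 with miR-24-2* gave 0.43. The 3 reporters most like miR-24-2*, of 290 others above background on at least 3 arrays, were miR-130a (r = 0.99), miR-25 (r = 0.98) and miR-5097 (r = 0.97). All 3 passed as higher with TNF-α, at 0.28, 0.39 and 0.52 (limma adjusted p = 0.0237, 0.0115 and 0.00819). The step between the groups therefore enters these r values. The 3 most like miR-24 were miR-125b-5p (r = 0.95), miR-132* (r = 0.95) and miR-140* (r = 0.90).

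The calls of 3 major arms depended on the scaling of the arrays, and that of miR-24-2* did not. Without normalization the changes were 0.22 for miR-23a, 0.18 for miR-23b, 0.16 for miR-27a, 0.13 for miR-24 and -0.030 for miR-27b, and in the values processed by the authors they were 0.24, 0.20, 0.17, 0.16 and -0.017 in the same order. In those values all TNF-α values of miR-23a, miR-23b, miR-27a and miR-24 lay above all control values, but none of the 4 passed in limma. The share of all reporters without overlap was not counted in the processed values, so this separation is not read as a result about the members. Scaled to the median of the 207 reporters above the limit on all 6 arrays, a setting added after seeing the data, 4 of the 6 members passed as higher. These were miR-23a (0.36), miR-23b (0.32), miR-27a (0.30) and miR-24-2* (0.56), while miR-24 (0.27) and miR-27b (0.11) did not pass. That scaling raised the median change of all tested reporters to 0.28 and gave 289 higher and 26 lower. The splits were 83 higher and 63 lower as reported, 163 and 41 without normalization, 126 and 60 when detected reporters set the median, and 39 and 81 in the authors' processed values.

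**Figure D4:**
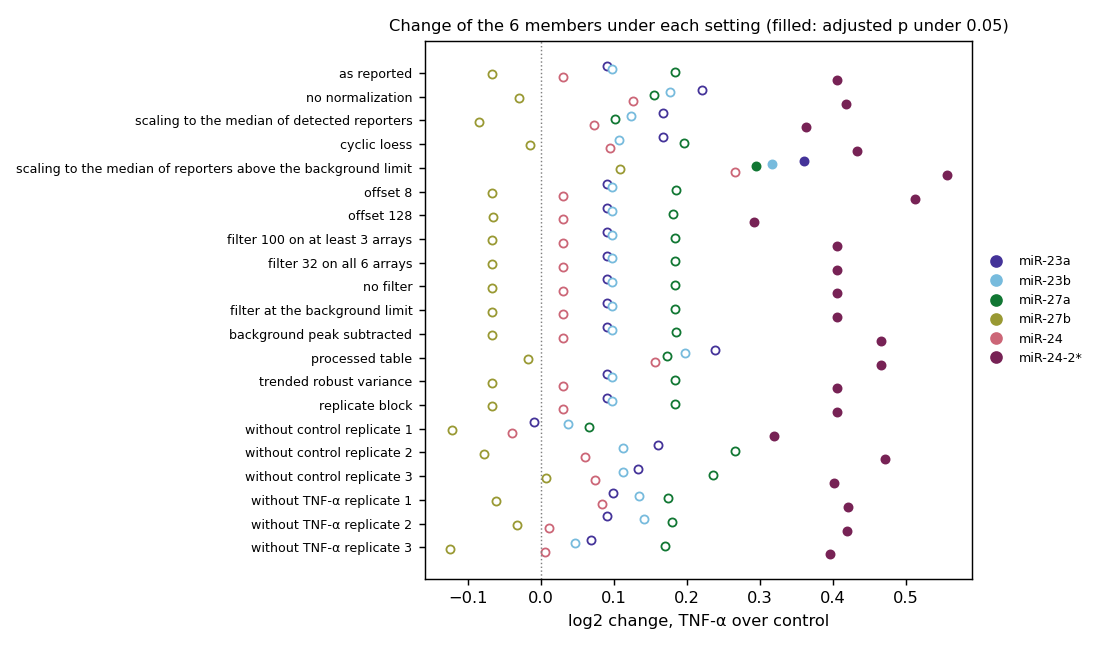
Log2 change, TNF-α over control, of the 6 members as reported and under each of 20 alternatives, in colours by member; filled points passed an adjusted p of 0.05 in limma. miR-24-2* is filled in every row, from 0.29 to 0.56, and miR-23a, miR-23b and miR-27a are filled only with scaling to the median of reporters above the background limit.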

How the data were processed

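Total RNA of 6 cultures was tailed, tagged and stained with Cy5, per the labels, giving 1-colour arrays. The labels name neither the scanner nor its software. The deposited densities and their SD are linear intensities per the file headers, with background not subtracted, as the values show. The processed table of the authors holds linear intensities whose scaling is not stated.

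Densities were corrected with normexp (offset 50) and quantile normalized in limma 3.58.1 under R 4.3.3. Reporters with a corrected density of 32 on at least 3 arrays (642) were tested with group as the only term, two-sided, with Benjamini-Hochberg adjustment. The background limit is the peak of an array's densities plus 3 SD of the values below it. Within-array differences were tested by exact permutation. Fold changes are on the offset scale, which understates changes of dim reporters.

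The members, lists and settings were chosen with earlier results of these data known. Text was limited to the members, all other reporters of their hairpins, miR-128 and the 3 reporters most correlated with miR-24 and with miR-24-2*. In 10 simulated data sets the fit recovered 75% of changes of 1 and 30.2% of changes of 0.5 (log2), and 8.69% of calls were false (median of 659 reporters tested). These changes were set before background was added, and a change of 1 was estimated at a median of 0.66. The simulated sizes are therefore not on the scale of the reported changes. Replicate numbers follow accession order, since the descriptions number the TNF-α samples 1, 3 and 3. Same-numbered arrays correlated at 0.042, 0.016 and 0.15 in their deviations from group means, so the numbers were not taken as pairs. Alternatives were other scalings, offsets, filters, background subtraction, the processed table with 32 added, a trended robust variance, the replicate block and each array left out.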

Additional observations from a re-analysis of the deposited data

How the results depend on the processing

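The call of miR-24-2* held under all 20 alternatives. The difference miR-24-2* minus miR-24 was positive in 13 of 13 (0.26 to 0.48). The same held for miR-27a minus miR-27b (0.19 to 0.34) and the a minus b mean (0.070 to 0.20). These settings reuse the same arrays and are not independent, and the replicate block cannot change the value of a difference. Median scaling of the log2 values cannot move these differences, but the offset can. The members called were 1 under 19 alternatives and 4 with scaling to the median of reporters above the background limit, where 315 reporters were called. A filter at 100 left 189 reporters tested and 77 called, and leaving out 1 array in turn gave 70 to 91 called. The difference miR-23a minus miR-23b turned positive without normalization (0.044), with cyclic loess (0.060) and in the processed table (0.041), and was -0.052 to 0.048 with 1 array left out. With the replicate block 103 reporters were called, among them miR-24-2*, and the sign-flip test of 3 pairs cannot go below an exact p of 0.25; the block changed no member's call. With an array left out the exact p of 2 against 3 cannot go below 0.1.

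Estimates close to 0 changed sign in places, and the cause was not tested; those of miR-23b*, miR-24-1* and miR-27a* lie near background and are no folds. With scaling to the median above the limit these were miR-27b (0.11), miR-23a* (0.10), miR-23b* (0.24) and miR-24-1* (0.28). Without normalization they were miR-23b* (0.10), miR-24-1* (0.14) and miR-128 (-0.066), with median scaling of detected reporters 0.050, 0.086 and -0.12 for the same 3. miR-128 was also -0.0093 with cyclic loess and -0.16 in the processed table. Without control replicate 1 the values of miR-23a (-0.0098), miR-24 (-0.040), miR-27a* (-0.00093) and miR-128 (-0.048) were negative, and without control replicate 2 that of miR-128 (-0.011). miR-27b was 0.0067 without control replicate 3, miR-23b* 0.035 without TNF-α replicate 2 and miR-27b* -0.025 without TNF-α replicate 3. With 1 array left out in turn the highest values were 0.16 for miR-23a, 0.084 for miR-24 and 0.091 for miR-27a*, and the lowest for miR-23b* was -0.10. Low signal over background limits what can be said of the minor arms other than miR-24-2*.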
